A study of Homo sapiens with 12 samples.

Results

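The genes described here code for the pumps and channels that move calcium between the cytosol, the endoplasmic reticulum (ER) and the outside of the cell. They are 10 genes chosen by name: ATP2A2, ATP2A3, ATP2B1, ATP2B4, ITPR1, ITPR2, ITPR3, STIM1, STIM2 and ORAI1. All 10 were found among the 61466 genes of the deposited expression table. RNA of SU-DHL-8 and of Farage, established cell lines from human diffuse large B cell lymphomas, was sequenced after 12 h with vehicle (control) or with morusinol, a prenylated flavonoid of mulberry. Each of the 4 groups has 3 libraries. The labels give the controls as wild type and name no engineered allele in any group. The sources used here give neither the dose nor whether replicates were separate cultures, so the p-values measure only the spread between these libraries. Each line is a single cell line, so a difference between SU-DHL-8 and Farage is a difference between these 2 lines.

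Calcium is held in the ER at a far higher level than in the cytosol. SERCA pumps (ATP2A2 and ATP2A3) load the ER, and PMCA pumps (ATP2B1 and ATP2B4) push calcium out across the plasma membrane. When the B cell receptor is engaged, phospholipase C gamma makes inositol trisphosphate, which opens the IP3 receptors (ITPR1, ITPR2 and ITPR3) and releases the store. The ER membrane proteins STIM1 and STIM2 sense the emptied store and open the plasma membrane channel ORAI1, and the entering calcium acts through calmodulin and calcineurin on NFAT factors.

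Values are FPKM, fragment numbers that the authors scaled by library depth and gene length. Fold changes are log2 of FPKM + 1, given as estimate ± standard error from limma fitted to all 12 libraries. Calls rest on an adjusted p under 0.05 (Benjamini-Hochberg, over 17574 genes tested), and n = 3 libraries per group throughout. The libraries of SU-DHL-8 held an estimated 6.06 to 15.2 M (mega) fragments, and those of Farage 9.37 to 19.0 M. The shallowest library was SU-DHL-8 morusinol replicate 2. All 6 B lymphocyte markers had a mean of at least 1 FPKM in every group. Their summed FPKM was 354 to 368 in SU-DHL-8 controls and 230 to 238 after morusinol, and 966 to 1021 and 613 to 660 in Farage. In SU-DHL-8 the lower sum was mostly CD79A (means of 175.3 and 43.0 FPKM), while CD79B (71.7 and 91.6) and PAX5 (39.8 and 45.1) had higher means after morusinol. In Farage the lower sum was mostly MS4A1 (356.1 and 92.9 FPKM). The 8 T and NK cell markers summed to 2.44 to 4.35 FPKM in SU-DHL-8 libraries, and to 71.4 to 80.3 FPKM in Farage controls and 45.5 to 55.9 FPKM after morusinol. In Farage most of that sum was TRAC (means of 70.0 FPKM in controls and 47.1 after morusinol), and PRF1 had means of 4.05 and 3.73. In SU-DHL-8 TRAC had means of 2.30 and 1.09 FPKM and NKG7 of 1.38 and 1.95. The markers CD3D, CD3E and CD3G had group means of at most 0.0425 FPKM. Summed FPKM was at most 1.78 for the 6 myeloid markers and 2.17 for the 7 fibroblast, endothelial and epithelial markers. The part of these markers in the changes below was not tested. In bulk RNA, fewer cells of a type and less RNA per cell cannot be told apart.

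Of the 10 genes, 9 were at 1 FPKM or more in all 12 libraries and were tested. ATP2B4 stayed under 1 FPKM in every library and was not tested. In SU-DHL-8, 7 of the 9 were called after morusinol (4 higher, 3 lower), where 46.8% of all genes were called (25.1% higher and 21.6% lower). Of the genes called in SU-DHL-8, 53.7% were higher as deposited and 43.9% after TPM scaling. In Farage, 7 of 9 were called as well (4 higher, 3 lower), where 43.1% of all genes were (21.9% higher and 21.2% lower). Treated and control libraries did not overlap for 7 of the 9 genes in SU-DHL-8 and for 8 in Farage, beside 54.1% and 51.0% of all genes. The response differed between the lines for 7 of 9 genes (4 with the higher value in Farage, 3 with the lower), against 34.9% of all genes. The 10 genes were chosen with earlier results of these data known. The main movements were a fall of ATP2A3 in both lines, rises of ITPR1 and STIM1 in SU-DHL-8, and a rise of ATP2B1 in Farage. The median log2 fold change of the 9 genes was 0.05 in SU-DHL-8 and -0.04 in Farage, beside 0.02 and -0.03 over all genes tested. Their median absolute log2 fold change was 0.50 and 0.28, beside 0.31 and 0.29.

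**Figure D1:**
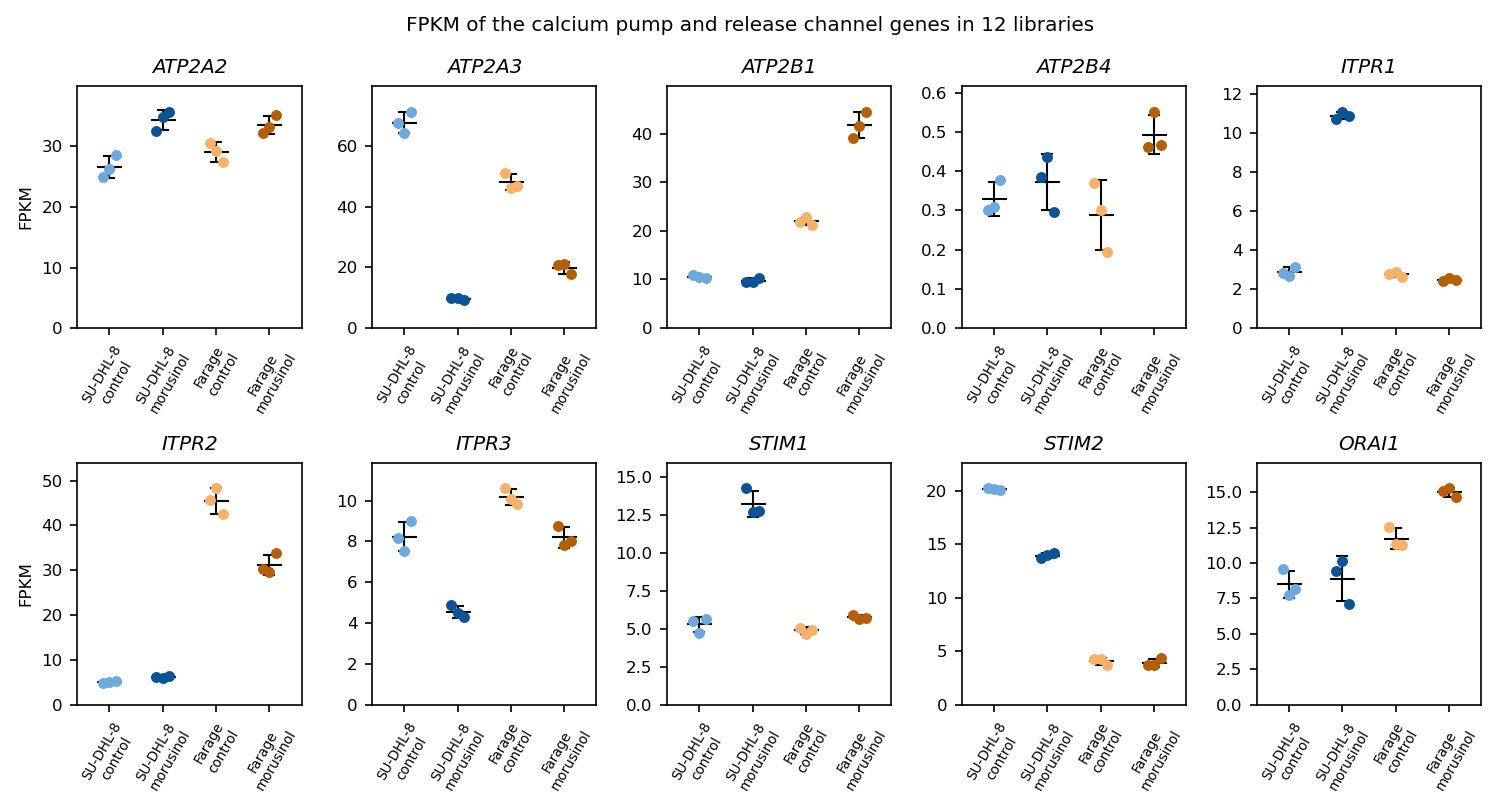
FPKM (vertical axis, from 0, 1 panel per gene) of the 10 genes in the 4 groups. Points are single libraries, and bars are the mean and SD of 3 libraries. ATP2A3 lies lower after morusinol in both lines, ITPR1 and STIM1 stand high in SU-DHL-8 morusinol, and ITPR2 and ATP2B1 stand higher in Farage than in SU-DHL-8.

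One stretch of sequence is shown first, because ATP2A2 rose in both lines, as did several ER chaperone genes. Some ER chaperone genes are known to carry the ER stress response element (ERSE: CCAAT, any 9 bases, then CCACG), which is bound by NF-Y and ATF6. RefSeq promoter windows (GRCh38.p14, 250 bases before to 50 bases after a start) were held for 7 of the 10 genes, in 12 windows. ATP2A3, ITPR2 and ORAI1 had none. Both strands were searched. The full ERSE was in none of the 12 windows and in 0.0773% of 34943 windows of all genes. The element without its last base (CCAAT, any 9 bases, then CCAC, which every full ERSE also matches) was in 1 of the 12, a window of ATP2A2, and in 0.315% of all windows. ERSE-II (ATTGG, any base, then CCACG, in 0.0544% of all windows) and the ATF4 and CHOP element (ATTNCATCA, in 0.996%) were in none of the 12. Of the 11 genes in the list on ER calcium buffers and leak proteins, all had a window and 3 held the full ERSE, while PDIA4 and SEC61A1 did not. The ATP2A2 stretch and those of these 3 genes are printed with the match in capitals. They lie at chr12:110281179-110281206 (plus strand), chr12:103930211-103930239 (plus), chr12:103930316-103930344 (minus), chr5:179698773-179698801 (plus) and chr19:12938379-12938407 (minus).
ATP2A2: ctcggCCAATGAGCGGCGTCCACatgcc
HSP90B1, first: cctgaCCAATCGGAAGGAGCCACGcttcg
HSP90B1, second: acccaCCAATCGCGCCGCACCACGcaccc
CANX: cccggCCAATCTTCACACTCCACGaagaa
CALR: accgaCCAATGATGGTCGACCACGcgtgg
The ATP2A2 stretch matches only the form without the last base, and the other 4 match the full ERSE. A match of letters describes the window and shows no binding.

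SERCA pumps load the ER with calcium. ATP2A3 (ENSG00000074370, SERCA3, the isoform typical of blood cells; chromosome 17, 3923870 to 3964464, minus strand) was at 67.4, 64.1 and 71.2 FPKM in SU-DHL-8 controls. After morusinol it was at 9.97, 9.82 and 9.33 FPKM. Farage controls held 51.1, 46.2 and 46.7 FPKM and Farage morusinol libraries 20.7, 21.1 and 17.7 FPKM. Treated and control values did not overlap in either line, and the SU-DHL-8 morusinol libraries were the lowest of all 12. The log2 fold change was -2.68 ± 0.0687 in SU-DHL-8 (limma adjusted p = 1.1e-09) and -1.24 ± 0.0687 in Farage (adjusted p = 2.7e-07). In SU-DHL-8 this was rank 11 from the lowest of 17574 genes, and in Farage rank 266. The fall was smaller in Farage by 1.44 ± 0.0972 on the log2 scale (adjusted p = 2.7e-06).

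ATP2A2 (ENSG00000174437, SERCA2, the isoform found in nearly all cells; chromosome 12, 110280756 to 110351093, plus strand) went the other way. Its FPKM was 25.0, 26.2 and 28.5 in SU-DHL-8 controls and 32.5, 34.9 and 35.7 after morusinol. In Farage it was 30.6, 29.3 and 27.4 in controls and 32.2, 33.3 and 35.2 after morusinol. The groups did not overlap in either line, but the shifts were small beside those of ATP2A3. ATP2A2 rose by 0.36 ± 0.0603 on the log2 scale in SU-DHL-8 (limma adjusted p = 0.000564) and by 0.20 ± 0.0603 in Farage (adjusted p = 0.0212). The Farage call was lost after rescaling to TPM and without control replicate 3 or morusinol replicate 3 (highest adjusted p = 0.0798). The difference of the responses was -0.16 (95% interval -0.35 to 0.03). The 3 ER genes printed above moved more: HSP90B1 rose by 1.60 and 1.09 in SU-DHL-8 and Farage, CANX by 0.95 and 0.90, and CALR by 0.65 and 0.87. PDIA4 (1.74 and 0.68) and SEC61A1 (1.67 and 0.63), without a full ERSE, also moved more than ATP2A2. In each line 3 of the 11 genes of that list, also without it, were not called. The part of the element in these changes was not tested. CANX and CALR were named for their promoter match, after their values were seen.

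The summed FPKM of both SERCA genes was 94.2 ± 4.89 in SU-DHL-8 controls and 44.1 ± 1.38 after morusinol, and 77.1 ± 4.03 and 53.4 ± 0.858 in Farage. The share of ATP2A3 in that sum was 71.0% to 73.0% in SU-DHL-8 controls and 20.7% to 23.5% after morusinol. In Farage it was 61.2% to 63.0% in controls and 33.4% to 39.1% after morusinol. The share was thus lower in all 6 treated libraries than in any control library. Averaged over the lines it changed by -37.5 percentage points (two-sided exact permutation test within lines, p = 0.005, adjusted p = 0.01 over the 6 shares tested). A p of 0.005 is the smallest that the 400 permutations can give, and 3 against 3 libraries of a single line cannot go below 0.1. Sums and shares depend on the length used. Rescaled to the longest protein-coding transcript, ATP2A2 and ATP2A3 would stand at 82.0 and 96.5 FPKM in SU-DHL-8 controls. In SU-DHL-8 morusinol libraries they would stand at 106.1 and 13.9 FPKM. In Farage they would stand at 89.8 and 68.6 FPKM in controls and at 103.6 and 28.3 FPKM after morusinol. The sum would then fall less, and ATP2A3 would hold less of it in each group.

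**Figure D2:**
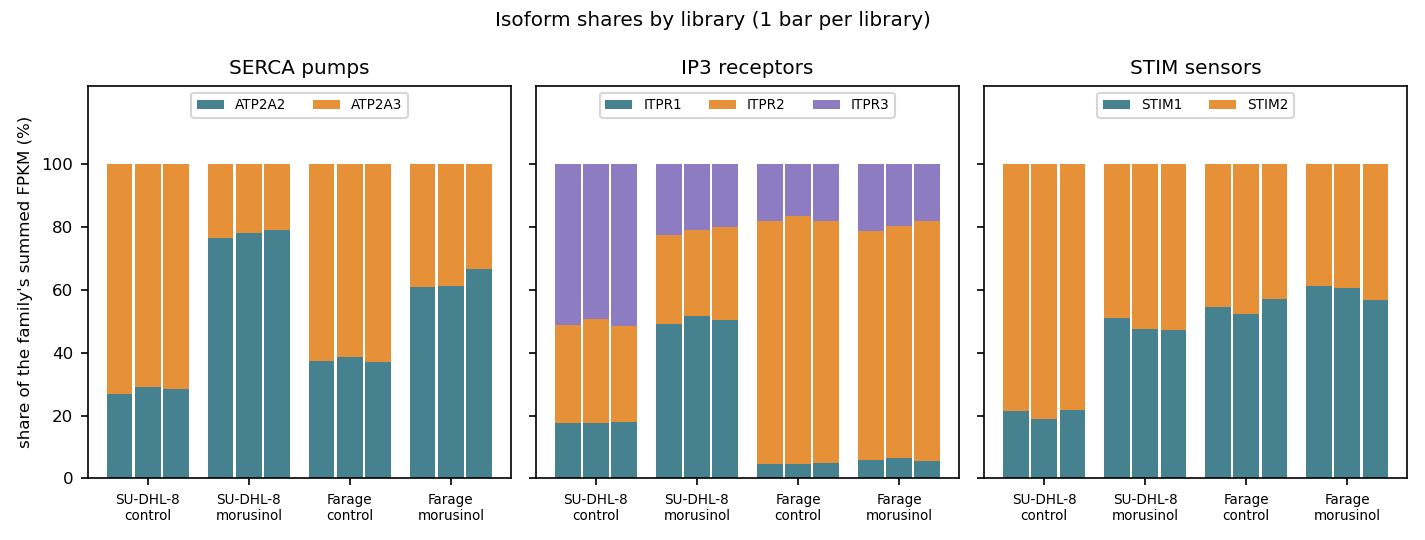
Share of a family's summed FPKM (vertical axis, percent) held by each gene of the SERCA pumps, IP3 receptors and STIM sensors, with 1 stacked bar per library in 4 groups. ATP2A3 holds 71.0% to 73.0% of the SERCA sum in SU-DHL-8 controls and 20.7% to 23.5% after morusinol, while ITPR1 goes from 17.6% to 17.9% of the receptor sum to 49.0% to 51.6%.

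PMCA pumps export calcium. ATP2B1 (ENSG00000070961, PMCA1, the widespread isoform; chromosome 12, 89588049 to 89709300, minus strand) was at 21.9, 22.8 and 21.3 FPKM in Farage controls and at 39.2, 41.7 and 44.5 FPKM in Farage morusinol libraries. In SU-DHL-8 it was at 10.9, 10.5 and 10.3 FPKM in controls and at 9.47, 9.39 and 10.3 FPKM after morusinol. The Farage groups were well apart, while those of SU-DHL-8 overlapped. ATP2B1 rose in Farage by 0.90 ± 0.0526 on the log2 scale (limma adjusted p = 4.2e-07). The SU-DHL-8 value was -0.11 ± 0.0526 (adjusted p = 0.121, 95% interval -0.23 to 0.01), and it was called lower after TPM scaling (-0.20) and after median-of-ratios scaling (-0.15). The responses differed by 1.01 ± 0.0744 (adjusted p = 4.9e-06). The antisense gene ATP2B1-AS1 shares 82 exonic bases with ATP2B1 and had means of 1.02 and 2.28 FPKM in Farage control and morusinol. Its means were also higher after morusinol in SU-DHL-8 (0.678 in controls and 1.32 after morusinol), where ATP2B1 did not rise. The sources used here do not state the strand of counting.

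ATP2B4 (ENSG00000058668, PMCA4; chromosome 1, 203626561 to 203744081, plus strand) was the lowest of the 10 in every group. Its FPKM was 0.301, 0.308 and 0.378 in SU-DHL-8 controls and 0.386, 0.435 and 0.296 after morusinol. In Farage it was 0.369, 0.300 and 0.194 in controls and 0.462, 0.551 and 0.467 after morusinol. The treated values lay above the controls in Farage and overlapped them in SU-DHL-8. These levels rest on an estimated 25.6 to 68.1 fragments per library, and ATP2B4 was not called in any comparison when the filter on low values was dropped. Its share of the PMCA sum was at most 4.43% in any library, and no change of that share was called (adjusted p = 0.39, exact permutation test).

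IP3 receptors release calcium from the ER. ITPR1 (ENSG00000150995; chromosome 3, 4493345 to 4847840, plus strand) was at 2.83, 2.69 and 3.13 FPKM in SU-DHL-8 controls and at 10.7, 11.1 and 10.9 FPKM after morusinol. Farage libraries held 2.78, 2.87 and 2.62 FPKM in controls and 2.42, 2.58 and 2.44 FPKM after morusinol. The SU-DHL-8 morusinol libraries stood apart from the other 9, which were all close together. ITPR1 rose by 1.62 ± 0.0538 on the log2 scale in SU-DHL-8 (limma adjusted p = 5.1e-09), rank 209 from the highest of 17574 genes. The Farage change was -0.11 ± 0.0538 and was not called (adjusted p = 0.132, 95% interval -0.23 to 0.01), although the 3 treated values lay just under the 3 controls. The responses differed by -1.72 ± 0.0761 (adjusted p = 2.4e-07). The antisense gene AC018816.1 shares 444 exonic bases with ITPR1 (1.37% of the exon length of ITPR1). Its means were 0.345 FPKM in SU-DHL-8 controls and 0.729 after morusinol, and 0.266 and 0.323 in Farage.

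ITPR2 (ENSG00000123104, the receptor with the highest affinity for inositol trisphosphate; chromosome 12, 26336515 to 26833198, minus strand) separated the lines. It was at 4.93, 5.04 and 5.34 FPKM in SU-DHL-8 controls and at 45.7, 48.3 and 42.5 FPKM in Farage controls. After morusinol it was at 6.24, 5.93 and 6.36 FPKM in SU-DHL-8 and at 30.3, 29.7 and 33.8 FPKM in Farage. Farage libraries stayed above all SU-DHL-8 libraries with or without morusinol. ITPR2 fell in Farage by 0.53 ± 0.0601 on the log2 scale (limma adjusted p = 4.8e-05) and rose in SU-DHL-8 by 0.23 ± 0.0601 (adjusted p = 0.00838). The SU-DHL-8 call was lost after rescaling to TPM (0.14, adjusted p = 0.183). The opposite movements differed by -0.76 ± 0.0850 (adjusted p = 7.9e-05). The antisense gene AC023051.1, which lies across ITPR2 without sharing exonic bases, had means of 6.78 and 3.12 FPKM in Farage control and morusinol.

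ITPR3 (ENSG00000096433; chromosome 6, 33620365 to 33696574, plus strand) fell in both lines. It was at 8.17, 7.54 and 9.01 FPKM in SU-DHL-8 controls and at 4.89, 4.48 and 4.30 FPKM after morusinol. In Farage it was at 10.6, 10.1 and 9.84 FPKM in controls and at 8.78, 7.82 and 8.03 FPKM after morusinol. Neither line had overlapping groups, and the gap was wider in SU-DHL-8. The log2 fold changes were -0.73 ± 0.0673 (limma adjusted p = 7.1e-06) and -0.28 ± 0.0673 (adjusted p = 0.00639), and they differed by 0.45 ± 0.0952 (adjusted p = 0.00437). UQCC2, on the opposite strand, shares 1025 exonic bases with ITPR3 (10.4% of its exon length). It went from a mean of 7.70 to 5.47 FPKM in SU-DHL-8 and from 5.70 to 4.21 FPKM in Farage, so without the strand of counting some fragments of this pair cannot be told apart.

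The summed FPKM of the 3 receptors was 16.2 ± 1.13 in SU-DHL-8 controls and 21.6 ± 0.175 after morusinol, and 58.4 ± 3.21 and 41.9 ± 2.12 in Farage, so the sum was higher after morusinol in SU-DHL-8 and lower in Farage. In SU-DHL-8 controls ITPR3 held 50.7% ± 1.19 of the sum, ITPR2 31.5% ± 1.32 and ITPR1 17.8% ± 0.138. After morusinol ITPR1 held 50.4% ± 1.28 and ITPR3 21.1% ± 1.24. The sum, the shares and which receptor leads depend on the length used. Rescaled to the longest protein-coding transcript, ITPR1 (9.18 FPKM) was already above ITPR3 (8.24) and ITPR2 (5.70) in SU-DHL-8 controls. In SU-DHL-8 morusinol libraries ITPR1 would stand at 34.7, ITPR3 at 4.56 and ITPR2 at 6.90 FPKM. The sum would then rise more than as deposited. In Farage ITPR2 held 77.8% ± 0.867 of the sum in controls and 74.5% ± 1.70 after morusinol. The share of ITPR1 changed by 16.9 points averaged over the lines (exact permutation test within lines, adjusted p = 0.01), made of 32.6 points in SU-DHL-8 and 1.21 in Farage. The share of ITPR2 changed by -3.15 points (same test, adjusted p = 0.01), made of -2.94 in SU-DHL-8 and -3.36 in Farage. The mean FPKM of ITPR2 itself went from 5.10 to 6.17 in SU-DHL-8 and from 45.5 to 31.2 in Farage. That of ITPR1 went from 2.89 to 10.9 in SU-DHL-8 and from 2.76 to 2.48 in Farage. The higher Farage share of ITPR1 is thus no rise of ITPR1 itself. For ITPR3 the changes were -29.7 points in SU-DHL-8 and 2.15 in Farage, and their average was not called (adjusted p = 0.12). With these opposite signs the exact permutation test could not go below p = 0.1, so it does not speak on SU-DHL-8 alone. There the ITPR3 share was 49.4% to 51.5% in controls and 19.9% to 22.4% after morusinol, without overlap.

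STIM proteins sense the filling of the ER store. STIM1 (ENSG00000167323, the main activator of store-operated entry; chromosome 11, 3854527 to 4093210, plus strand) was at 5.51, 4.69 and 5.62 FPKM in SU-DHL-8 controls and at 14.2, 12.7 and 12.7 FPKM after morusinol. In Farage it was at 5.05, 4.65 and 4.93 FPKM in controls and at 5.88, 5.66 and 5.72 FPKM after morusinol. The SU-DHL-8 morusinol libraries stood above all others, and the Farage groups were narrowly apart. STIM1 rose by 1.18 ± 0.0655 on the log2 scale in SU-DHL-8 (limma adjusted p = 1.7e-07), rank 553 from the highest. It rose by 0.20 ± 0.0655 in Farage (adjusted p = 0.0300). The Farage call was lost in 6 of 20 alternatives, namely without the filter on low values and without 5 of the 6 Farage libraries in turn, all but control replicate 1 (highest adjusted p = 0.0988). The responses differed by -0.98 ± 0.0926 (adjusted p = 2.7e-05).

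STIM2 (ENSG00000109689, which responds to smaller losses of ER calcium; chromosome 4, 26857678 to 27025381, plus strand) was at 20.2, 20.2 and 20.1 FPKM in SU-DHL-8 controls and at 13.7, 14.0 and 14.1 FPKM after morusinol. Farage had 4.22, 4.25 and 3.68 FPKM in controls and 3.73, 3.67 and 4.36 FPKM after morusinol. The SU-DHL-8 groups were far apart, and the Farage groups overlapped. STIM2 fell by 0.50 ± 0.0603 on the log2 scale in SU-DHL-8 (limma adjusted p = 5.2e-05), and the Farage value was -0.04 ± 0.0603 (adjusted p = 0.662, 95% interval -0.17 to 0.10). The responses differed by 0.46 ± 0.0853 (adjusted p = 0.00195). The antisense gene AC106047.1, which lies across STIM2 without sharing exonic bases, averaged 4.83 FPKM in the SU-DHL-8 controls and 3.66 FPKM after morusinol. The summed FPKM of both STIM genes was 25.4 ± 0.487 in SU-DHL-8 controls and 27.1 ± 0.668 after morusinol, while the share of STIM2 went from 79.3% ± 1.63 to 51.4% ± 2.04. In Farage that share was 45.3% ± 2.52 and 40.5% ± 2.39. Averaged over the lines it changed by -16.4 points (exact permutation test within lines, p = 0.01, adjusted p = 0.015). That average was made of -27.9 points in SU-DHL-8 and -4.87 in Farage. The Farage ranges overlapped (42.7% to 47.8% in controls and 38.9% to 43.2% after morusinol).

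ORAI1 (ENSG00000276045, the pore of the store-operated channel; chromosome 12, 121626550 to 121642677, plus strand) was at 9.55, 7.77 and 8.15 FPKM in SU-DHL-8 controls and at 9.46, 10.1 and 7.07 FPKM after morusinol. In Farage it was at 12.6, 11.3 and 11.3 FPKM in controls and at 15.1, 15.3 and 14.6 FPKM after morusinol. The SU-DHL-8 groups overlapped, and the Farage groups did not. ORAI1 rose in Farage by 0.33 ± 0.111 on the log2 scale (limma adjusted p = 0.0330). That call was lost in the same 6 alternatives as for STIM1 (highest adjusted p = 0.0916). The SU-DHL-8 value was 0.05 ± 0.111 (adjusted p = 0.780, 95% interval -0.20 to 0.30), and the difference of the responses was 0.28 (95% interval -0.07 to 0.63).

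**Figure D3:**
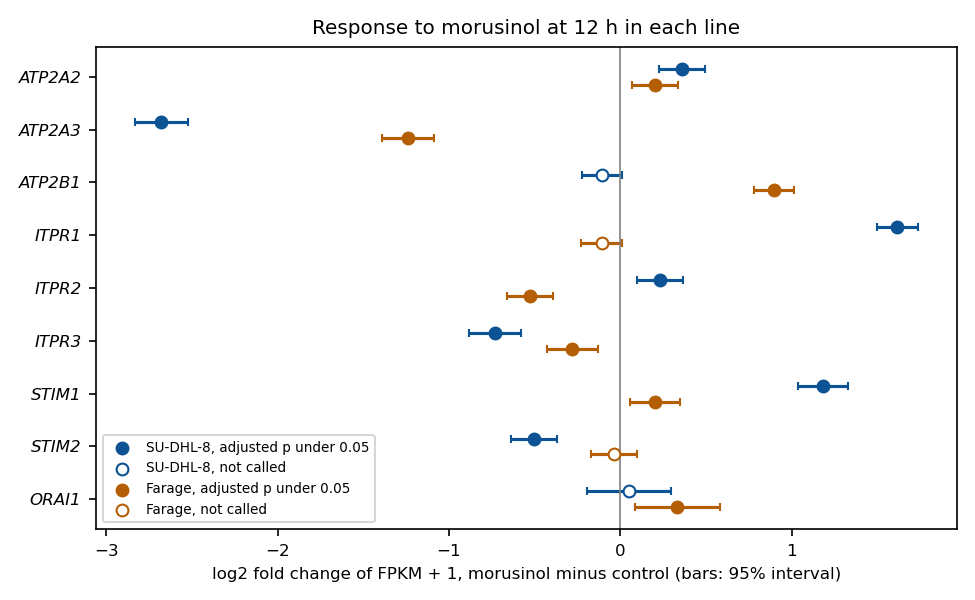
Log2 fold change of FPKM + 1, morusinol minus control (horizontal axis), of the 9 genes tested, with 95% intervals. SU-DHL-8 is blue and Farage is orange, and filled points have an adjusted p under 0.05. ATP2A3 lies farthest to the left in both lines (-2.68 and -1.24), and ITPR1 farthest to the right in SU-DHL-8 (1.62).

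The untreated lines differed in 6 of the 9 genes (4 higher and 2 lower in Farage), where 64.1% of all genes were called (34.5% higher and 29.6% lower), and the controls did not overlap for 6 of 9, beside 69.5% of all genes. The largest differences were ITPR2, higher in Farage by 2.93 ± 0.0601 on the log2 scale (limma adjusted p = 1.9e-11), and STIM2, lower in Farage at -2.07 ± 0.0603 (adjusted p = 2.9e-10). ITPR2 was at rank 398 from the highest and STIM2 at rank 256 from the lowest of 17574 genes. ATP2B1 was higher by 0.99 ± 0.0526, ORAI1 by 0.43 ± 0.111 and ITPR3 by 0.28 ± 0.0673, and ATP2A3 was lower at -0.48 ± 0.0687. ATP2A2 (0.13), ITPR1 (-0.05) and STIM1 (-0.09) were not called. After TPM scaling ATP2A2 was called higher in Farage (0.22), and ITPR1 was at 0.03. ATP2A2 was also called without replicate 3 of either control group, and STIM1 was called lower without SU-DHL-8 control replicate 2 (-0.16).

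FPKM is per length, but an order of levels between genes holds only for the length the authors used, which their sources do not give. As deposited, the order by mean FPKM in SU-DHL-8 controls was ATP2A3 (67.6 ± 3.51), ATP2A2 (26.6 ± 1.81), STIM2 (20.2 ± 0.0719), ATP2B1 (10.5 ± 0.313), ORAI1 (8.49 ± 0.939), ITPR3 (8.24 ± 0.734), STIM1 (5.27 ± 0.510), ITPR2 (5.10 ± 0.214), ITPR1 (2.89 ± 0.223) and ATP2B4 (0.329 ± 0.0424). The ranges of ORAI1 and ITPR3 overlapped, as did those of STIM1 and ITPR2. After morusinol ATP2A2 led in SU-DHL-8 (34.4 ± 1.64 FPKM), and ATP2A3 (9.71 ± 0.331) had joined ATP2B1 (9.71 ± 0.493) and ORAI1 (8.88 ± 1.60), whose ranges overlapped its own. In Farage controls ATP2A3 (48.0 ± 2.70) and ITPR2 (45.5 ± 2.91) overlapped at the top. In Farage morusinol libraries ATP2B1 came first (41.8 ± 2.64 FPKM), ahead of ATP2A2 (33.6 ± 1.52) and ITPR2 (31.2 ± 2.21), which overlapped.

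The exons of ATP2A2 cover 13745 bases in GENCODE release 29 and its longest protein-coding transcript 4453, and for ITPR1 the lengths are 32454 and 10197 bases. Rescaled to the longest protein-coding transcript, ATP2A2 would stand at 89.8 and ATP2A3 at 68.6 FPKM in Farage controls, the reverse of the order above. In Farage morusinol libraries ATP2A2 would stand at 103.6 and ATP2B1 at 56.4 FPKM, so the first place reverses too. ITPR1 would stand at 34.7 FPKM in SU-DHL-8 morusinol libraries. A length is the same in all libraries, so the fold changes of each gene are hardly touched by it. The changes of the shares kept their direction and their calls under the rescaling (ATP2A3 -32.2 points, ITPR1 19.2, ITPR2 -7.08 and STIM2 -17.1).

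Over the 12 libraries, the genes with the pattern most like ATP2A3 were TUBB (a beta tubulin, Pearson r = 0.997), MACROH2A1 (a histone variant, r = 0.995) and GPI (a glycolytic isomerase, r = 0.992). TUBB went from 387 ± 6.41 to 123 ± 2.27 FPKM in SU-DHL-8 and from 302 ± 19.3 to 191 ± 9.86 FPKM in Farage. Most like ATP2A2 were GBF1 (a Golgi exchange factor, r = 0.953), MAP4 (a microtubule protein, r = 0.950) and TNRC6B (a silencing factor, r = 0.947). MAP4 went from 9.48 ± 0.912 to 21.5 ± 0.946 FPKM in SU-DHL-8 and from 14.3 ± 0.950 to 20.1 ± 0.254 FPKM in Farage. The 12 points share 2 lines and 1 treatment, and these genes were picked as the closest of all with a group mean of at least 5 FPKM, so r describes likeness only.

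A further 85 genes of calcium handling, in 8 lists, set the 10 genes in their pathway, and 65 of them were tested. In SU-DHL-8, 27 were higher and 21 lower (median 0.03), and in Farage 29 were higher and 10 lower (median 0.15). Over all genes tested the medians were 0.02 and -0.03, with 25.1% higher and 21.6% lower in SU-DHL-8 and 21.9% and 21.2% in Farage, and the counts of each list stand beside these same shares. Of the 65 genes, 73.8% were called in SU-DHL-8 and 60% in Farage, where 46.8% and 43.1% of all genes were. The lists were chosen with earlier results of these data known, so their counts cannot tell a trait of calcium genes from the choice. The response differed between the lines for 33 of the 65 (50.8%, 23 with the higher value in Farage and 10 with the lower), beside 34.9% of all genes. ER calcium buffers and leak proteins had 8 of 11 tested genes higher and none lower in each line, with medians of 0.65 and 0.63. PDIA4 (a luminal disulfide isomerase) rose by 1.74 ± 0.0425 in SU-DHL-8 and 0.68 ± 0.0425 in Farage. SEC61A1 (the translocon pore, also a calcium leak path) rose by 1.67 ± 0.0568 and 0.63 ± 0.0568.

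**Figure D4:**
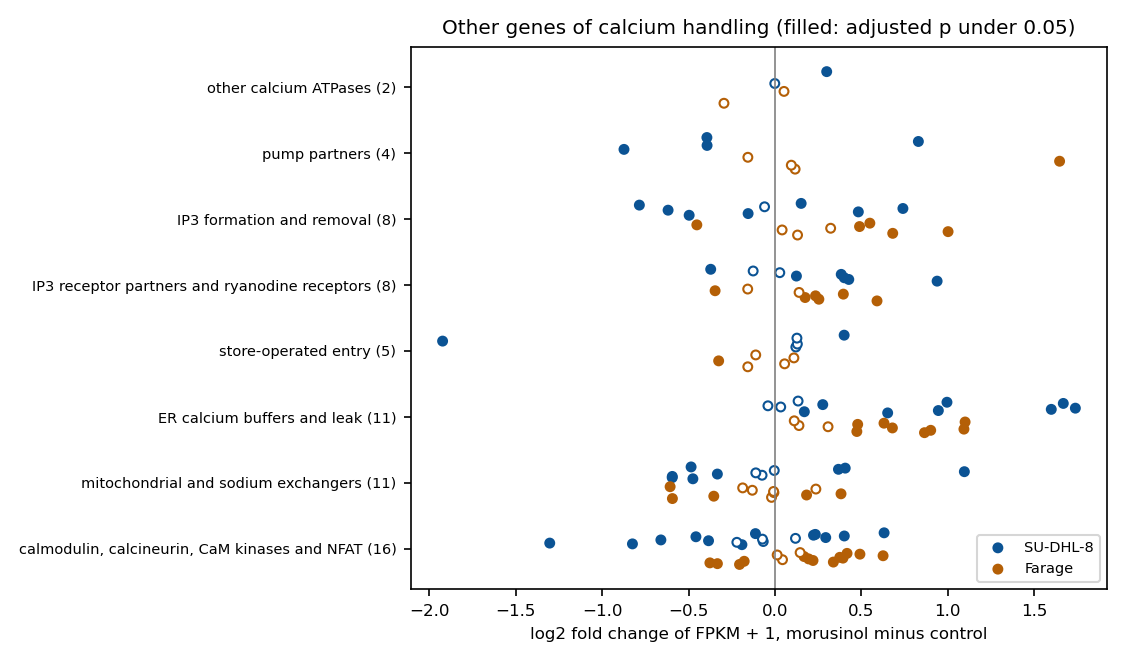
Log2 fold change of FPKM + 1, morusinol minus control (horizontal axis), of the 65 tested genes in 8 lists of calcium handling (number tested in brackets), with SU-DHL-8 in blue and Farage in orange. Filled points have an adjusted p under 0.05. In the list of ER calcium buffers and leak proteins 8 of 11 genes are called higher in each line, and KCNN4 lies farthest to the left (-1.92 in SU-DHL-8).

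Upstream of the IP3 receptors, 3 of 8 tested genes of IP3 formation and removal were higher and 4 lower in SU-DHL-8, with 4 higher and 1 lower in Farage. PLCG2, the phospholipase of B cell receptor signalling, fell from 20.3 ± 0.392 to 11.4 ± 0.810 FPKM in SU-DHL-8 and from 41.4 ± 1.86 to 30.0 ± 0.903 FPKM in Farage (-0.78 ± 0.0518 and -0.45 ± 0.0518). ITPKB, a kinase that removes IP3, was at 1.07 ± 0.148 FPKM in SU-DHL-8 controls and 51.4 ± 1.81 FPKM in Farage controls. It rose by 0.68 ± 0.0575 in Farage and fell by 0.16 ± 0.0575 in SU-DHL-8 (limma adjusted p = 0.0479), a call at the threshold that was lost in 14 of 20 alternatives. ITPKC, of the same family, rose by 0.48 ± 0.131 in SU-DHL-8 and by 1.0 ± 0.131 in Farage. Of 8 tested receptor partners and ryanodine receptors, 5 were higher and 1 lower in each line. AHCYL1 (IRBIT, which competes with IP3 at its receptor) rose by 0.94 ± 0.0593 in SU-DHL-8 and 0.59 ± 0.0593 in Farage. IRAG2 (LRMP, an IP3 receptor partner) rose by 0.40 and 0.18, and ERP44 (a luminal partner of ITPR1) by 0.43 and 0.25.

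Among 5 tested genes around store-operated entry, 1 was higher and 1 lower in SU-DHL-8, and 1 was lower in Farage. KCNN4, the calcium-activated potassium channel that keeps the driving force for calcium entry, fell from 5.92 ± 0.566 to 0.822 ± 0.138 FPKM in SU-DHL-8 (-1.92 ± 0.0953). In Farage it fell from 13.0 ± 0.930 to 10.2 ± 1.26 FPKM (-0.33 ± 0.0953, limma adjusted p = 0.0184), a call lost in 5 of 20 alternatives, 4 of which left out a Farage library (control replicate 1 or 3, morusinol replicate 1 or 3). SARAF, which inactivates store-operated entry, stood in the list on pump partners, where 1 of 4 tested genes was higher and 3 lower in SU-DHL-8. SARAF rose from 42.9 ± 1.94 to 77.1 ± 2.67 FPKM in SU-DHL-8 and from 16.2 ± 0.261 to 52.9 ± 1.98 FPKM in Farage (0.83 ± 0.0427 and 1.65 ± 0.0427). It was the only gene of that list called in Farage. BSG (basigin, a partner subunit of PMCA pumps) fell by 0.87 ± 0.0523 in SU-DHL-8 and was at 0.12 in Farage (adjusted p = 0.0989), and TMX1 (a thioredoxin of the ER that restrains SERCA) fell by 0.39 in SU-DHL-8 and was at -0.16 in Farage (adjusted p = 0.112). ATP2C1, the calcium pump of the Golgi and 1 of 2 other calcium ATPases tested, rose by 0.30 ± 0.0559 in SU-DHL-8 and was at 0.05 in Farage (adjusted p = 0.497).

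Downstream, 5 of 16 tested genes of calmodulin, calcineurin, CaM kinases and NFAT were higher and 7 lower in SU-DHL-8, while 9 were higher and 4 lower in Farage. The calmodulin genes CALM3 and CALM2 fell by 1.30 ± 0.0490 and 0.82 ± 0.0680 in SU-DHL-8 and by 0.38 ± 0.0490 and 0.33 ± 0.0680 in Farage. CAMK4, a CaM kinase, fell by 0.66 ± 0.0594 in SU-DHL-8 and was at 0.04 in Farage (limma adjusted p = 0.602). Of 11 tested genes of mitochondrial uptake and sodium exchange, 3 were higher and 5 lower in SU-DHL-8, and 2 were higher and 3 lower in Farage. VDAC1, the outer membrane channel, fell by 0.49 ± 0.0353 and 0.61 ± 0.0353, and MCUB, the inhibitory subunit of the uniporter, by 0.59 ± 0.0570 and 0.35 ± 0.0570. MCU, the uniporter pore, fell by 0.59 ± 0.0986 in SU-DHL-8 and was at -0.02 in Farage (adjusted p = 0.903).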

How the data were processed

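Per the labels' protocols, total RNA went into a SMARTer mRNA-seq library kit. The authors deposited 1 table of FPKM with 12 columns, 1 per library. The sources used here do not name an aligner, a counting program, the gene lengths or the strand. The submitters' processing notes list only mouse builds, while the identifiers are human Ensembl identifiers, of which 58297 of 61466 (94.8%) match GENCODE release 29 on GRCh38, whose positions are given. Columns marked mor were taken as morusinol and those marked n as control. No pair of libraries was identical. Depth was estimated from the steps of FPKM times exon length (51.0% to 53.0% of the low values came out whole, with a tolerance of 0.02), so no counting intervals are given.

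The 17574 genes that reached 1 FPKM in 3 or more libraries were transformed to log2(FPKM + 1) and fitted with limma 3.58.1 in R 4.3.3 with 1 mean per group, an intensity trend and a robust prior. The script was tested on simulated data. Isoform shares were tested by exact permutation within lines. Tests were two-sided. Alternatives were other pseudocounts, filters, scalings and priors, a replicate block, single-line fits and leaving out each library. The alternative transcript length was added after seeing the data. The 10 genes and the lists were chosen with earlier results of these data known. Beside the 10 genes, the text names up to 3 genes per list that had a group mean of at least 5 FPKM, a call and no overlap of treated and control values in a line, by the size of the change, and the 3 genes closest in pattern to ATP2A3 and to ATP2A2. Sums and figures were made with matplotlib 3.10.9, pandas 2.3.3 and numpy 2.4.6 under Python 3.11.15. Promoter windows are from RefSeq.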

Additional observations from a re-analysis of the deposited data

Results flagged for a closer look

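Morusinol moved 7 of the 9 tested pump and channel genes differently in the 2 lines, by the test of the difference itself (Farage response minus SU-DHL-8 response, log2 scale, limma adjusted p under 0.05). By the same test 34.9% of all genes differed, and these genes were chosen with earlier results of these data known. The differences were 1.44 for ATP2A3, 1.01 for ATP2B1, -1.72 for ITPR1, -0.76 for ITPR2, 0.45 for ITPR3, -0.98 for STIM1 and 0.46 for STIM2. ATP2A3 and ITPR3 fell in both lines and fell more in SU-DHL-8, and ITPR2 moved in opposite directions. All 7 calls were kept in each of the 19 alternatives.

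Of the 20 other calcium genes named, 16 also differed between the lines by the same test. These 20 had been picked for a large called change in a line, and over all 65 tested genes of the lists 33 differed (50.8%), beside 34.9% of all genes. The difference was 1.60 for KCNN4, 0.99 for BSG, 0.93 for CALM3, 0.84 for ITPKB, 0.82 for SARAF, 0.70 for CAMK4, 0.58 for MCU, 0.49 for CALM2, 0.33 for PLCG2 and 0.24 for MCUB. It was -1.06 for PDIA4, -1.04 for SEC61A1, -0.51 for HSP90B1, -0.35 for AHCYL1, -0.25 for ATP2C1 and -0.23 for IRAG2. In up to 19 alternatives this call was lost for ATP2C1 in 11, for MCUB in 10, for IRAG2 in 2 and for AHCYL1 in 1, and for none of the other 12. For IRAG2 and AHCYL1 the alternatives were scalings: IRAG2 was at -0.11 and AHCYL1 at -0.23 after TPM scaling.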

How the results depend on the processing

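Each fit was repeated under up to 20 alternatives. In SU-DHL-8, 174 of 180 repeats of the 9 genes kept direction and call, in Farage 165 of 180, for the difference of the responses 171 of 171, and for the controls 166 of 171. In Farage the number of the 9 genes called was 4 to 7 when single libraries were left out, and 4 without control replicate 3 or morusinol replicate 3. ORAI1 in SU-DHL-8 was at -0.045 after TPM scaling and -0.041 to 0.19 without single libraries, and ITPR1 in the controls was at 0.027 after TPM scaling. MCU in Farage ranged from -0.12 to 0.10 without single libraries. The share of ATP2B4 changed by -0.44 points when 1 FPKM was added first, and by 0.28 otherwise; the cause of these reversals was not tested. The counts of genes called stayed within 1.5 times in every alternative (7351 to 8313 in SU-DHL-8, 6617 to 7692 in Farage). Of the genes whose response differed between the lines, 49.6% were higher as deposited and 61.7% after TPM scaling. With the replicate block 7935 genes were called in SU-DHL-8 and 7287 in Farage, the calls of the 9 genes did not change in number (7 and 7), and same-numbered libraries of a line did not deviate together across genes (r of -0.0788 to 0.0331, not always the best match), so the numbers were not taken as pairs. Depth limits ATP2B4 most.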
